A study of Mus musculus with 4 samples.

Results

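Parvalbumin interneurons are the fast-spiking GABAergic cells that inhibit the cell bodies and axon initial segments of cortical neurons. Here they are 246 of 54550 barcodes (0.451%) from mouse cortex nuclei, chosen by their own RNA. A nucleus was counted as a Pvalb nucleus when at most 5% of its UMIs (unique molecular identifiers, counted RNA molecules) were mitochondrial, when Gad1, Gad2 and Slc32a1 together gave at least 3 UMIs and more than Slc17a7 and Neurod6, and when Pvalb, Btbd11 and Tmem132c together gave at least 4. Nuclei with more than 2 Sst UMIs or with 5 or more Adarb2 UMIs were left out. The wildtype libraries held 75 and 75 of these nuclei (replicates 1 and 2), and the knockout libraries held 58 and 38.

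The study compared 5-month-old C57BL/6 mice of 2 genotypes, wildtype and Setdb1-CK-cKO, a conditional knockout of Setdb1, with 2 animals per genotype and 1 droplet (10x 3′) library of cortical nuclei per animal. The labels list 1 male and 1 female in each genotype. They do not explain "CK", name the promoter that drives recombination, say which exon was removed, or say whether the wildtype animals carry a floxed allele or Cre. Whether Pvalb interneurons recombined at all is therefore not known from the labels.

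Setdb1 encodes an enzyme that methylates lysine 9 of histone H3, a mark of silenced chromatin that keeps repeats and some gene clusters off in neurons. Pvalb interneurons arise from the medial ganglionic eminence (MGE) under the transcription factors Lhx6 and Sox6, and fire fast because they hold Kv3 potassium channels, which Kcnc1 and Kcnc2 encode. They take up the neuregulin signal through the receptor Erbb4.

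The 4 libraries held 38314394 to 45605971 UMIs. In the Pvalb nuclei the sums were 396351 and 392307 UMIs (wildtype replicates 1 and 2) and 310933 and 176185 UMIs (knockout replicates 1 and 2), with medians of 4877, 4570, 5363.5 and 4162.5 UMIs per nucleus. Knockout replicate 2 was thus the thinnest sample of these cells. Libraries shared 48 to 64 barcodes per pair and no Pvalb nucleus. Xist RNA, which coats an inactive X, measured 0, 709, 0 and 894 CPM in Pvalb nuclei (CPM is a gene's UMIs relative to all summed UMIs of its library, TMM-scaled, and libraries are always in the order wildtype 1, wildtype 2, knockout 1, knockout 2). Y-linked Uty measured 82.9, 0, 66.3 and 0 CPM. By these genes both knockout animals go against their listed sex, while each genotype still has 1 library of either pattern.

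Setdb1 RNA itself measured 69.1, 65.0, 87.3 and 31.5 CPM in Pvalb nuclei, from 25, 23, 25 and 5 UMIs. The genotypes overlapped, since knockout replicate 1 had the highest and knockout replicate 2 the lowest value. RNA counted at the 3′ end can remain when an inner exon is deleted, so these values do not check the knockout in this cell type.

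The members met the rule mainly through Btbd11. In 141 of 246 nuclei (57.3%) Btbd11 alone reached 4 UMIs, in 28 Tmem132c alone did, in 18 both did, and in 59 (24.0%) only the sum reached 4. Pvalb RNA was sparse: 24.0%, 24.0%, 24.1% and 23.7% of the members had a Pvalb UMI, and the highest count in a nucleus was 3. Among excitatory nuclei of the same libraries, at median depths of 4173 to 5013 UMIs, 3.57% to 5.60% had a Pvalb UMI. With every nucleus thinned to 2000 UMIs the shares were 6.90% to 10.8% in Pvalb nuclei and 1.21% to 2.93% in excitatory nuclei. In that thinning 1, 0, 0 and 0 Pvalb nuclei and 87, 84, 42 and 71 excitatory nuclei were too shallow and were left out. These genes chose the nuclei, so their levels are a description. Just outside the rule lay 19, 14, 10 and 8 nuclei whose marker sum was 3, and just inside it 14, 14, 15 and 12 whose sum was 4. Nuclei that met every other step with 2 in place of 3 Gad1, Gad2 and Slc32a1 UMIs numbered 68, 55, 38 and 36.

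Several genes that the rule did not use, and that are known from Pvalb interneurons, were high in these nuclei. Kcnc2, the Kv3.2 channel gene, measured 2498, 2167, 2360 and 2260 CPM in Pvalb nuclei, against 1153, 1271, 984 and 1070 CPM in the other inhibitory nuclei with low Adarb2. The Pvalb nuclei were above that class in every library, and above excitatory nuclei (200 to 266 CPM) and inhibitory nuclei with high Adarb2 (236 to 431 CPM) as well. Erbb4 reached 6382 to 7596 CPM, against 4266 to 5304 CPM in Adarb2-high, 2150 to 2956 CPM in other Adarb2-low and 148 to 214 CPM in excitatory nuclei. Lhx6, which specifies MGE interneurons, measured 74.6, 84.8, 59.3 and 50.4 CPM, against 34.8 to 55.3 CPM in other Adarb2-low and 2.40 to 6.73 CPM in Adarb2-high nuclei. Adarb2 itself is known from interneurons of the caudal ganglionic eminence.

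Sox6, Cntnap4, Kcnc1 and Ppargc1a, the last a coactivator of mitochondrial genes, were likewise higher in Pvalb nuclei than in the other 3 classes in every library, as the plot of interneuron genes by class shows. Satb1, a chromatin organizer of MGE interneurons, was higher in 3 of 4 libraries, with 161 CPM in Pvalb and 171 CPM in other Adarb2-low nuclei of wildtype replicate 2. Not every such gene stood out. Maf measured 484, 461, 325 and 428 CPM in Pvalb nuclei, against 483, 495, 375 and 518 CPM in Adarb2-high nuclei. Cox6a2 measured 5.53, 5.65, 14.0 and 0 CPM in Pvalb nuclei, against 4.09, 3.59, 8.26 and 17.3 CPM in excitatory nuclei. Markers of chandelier cells, the Pvalb subtype that contacts axon initial segments, were at or near 0: Nkx2-1 and Pthlh had no UMI, Vipr2 had 0 CPM in 3 of 4 libraries, and Unc5b had at most 13.8 CPM. Because the nuclei were picked by RNA, these class differences are given with no test.

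**Figure D1:**
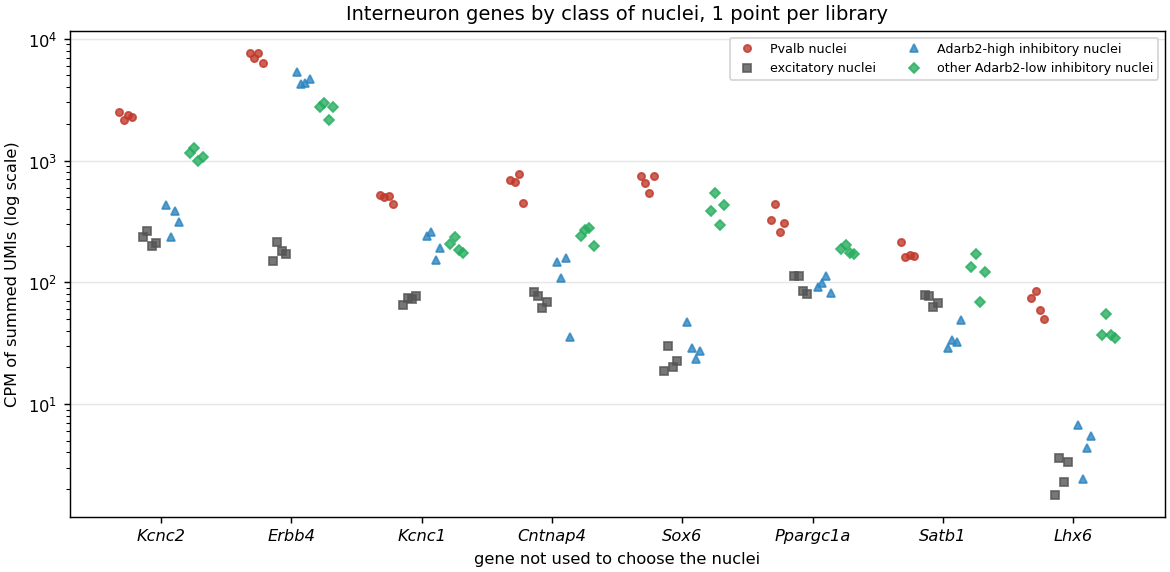
Levels of 8 interneuron genes (log axis, CPM of UMIs summed per library) in 4 classes of nuclei, with 1 point per library in the order wildtype 1 and 2, knockout 1 and 2. In Pvalb nuclei Kcnc2 sits at 2167 to 2498 CPM and Lhx6 at 50.4 to 84.8 CPM, and excitatory nuclei lie far lower for both.

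RNA of other cells was present in the members. A Slc17a7 or Neurod6 UMI, which marks excitatory neurons, was found in 33.3% to 50.7% of them, and the 10 excitatory markers summed to 789 to 949 CPM in Pvalb nuclei against 2220 to 2422 CPM in excitatory nuclei. Astrocyte markers summed to 246, 212, 185 and 245 CPM and oligodendrocyte markers to 279, 212, 276 and 245 CPM, with overlapping genotypes. Microglial markers summed to 96.7 and 130 CPM in wildtype and to 182 and 189 CPM in knockout. Endothelial markers summed to 2.76 and 5.65 CPM in wildtype and to 31.4 and 0 CPM in knockout. Vip interneuron markers, Adarb2 included, summed to 62.9 to 105 CPM against 5404 to 6695 CPM in Adarb2-high nuclei. A Sst UMI, of which the rule allowed 2 per nucleus, was found in 28.0%, 33.3%, 24.1% and 21.1% of the members. Sst measured 63.6, 82.0, 66.3 and 56.6 CPM in Pvalb nuclei, beside 60.8, 56.5, 55.8 and 62.9 CPM of Pvalb. Excitatory nuclei held 52.9, 61.4, 69.1 and 68.4 CPM of Sst. The part of this RNA in the results that follow was not tested beyond the settings in which such nuclei were left out.

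Pvalb nuclei made up 17.7% (exact Clopper-Pearson 95% interval 14.2% to 21.7%) and 25.3% (20.4% to 30.6%) of the nuclei that met the inhibitory step of the rule in wildtype replicates 1 and 2. The shares were 13.7% (10.6% to 17.3%) and 16.5% (11.9% to 21.9%) in knockout replicates 1 and 2, with intervals for counting error only. The means were 21.5% ± 5.35 and 15.1% ± 1.96 (SD, n = 2), a difference of -6.41 percentage points. Both knockout shares lay below both wildtype shares, but 2 animals against 2 allow no exact two-sided permutation p below 0.333, which is the value found. After thinning to 2000 UMIs, only 5 of 155, 10 of 94, 2 of 137 and 4 of 74 inhibitory nuclei met the rule. Barcodes too shallow to thin were 38.8%, 37.8%, 34.3% and 39.3% of each library. The difference was then -3.50 points and the libraries overlapped (exact permutation p = 0.667), on too few nuclei to decide whether depth matters. By the rule the share depends on the levels of the marker genes. In the members Btbd11 measured 1080, 1161, 862 and 919 CPM and Tmem132c 461, 294, 391 and 491 CPM. Nuclei chosen by these genes cannot show whether either gene differs between genotypes.

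The sums of UMIs over these nuclei were then compared between genotypes for 6108 genes that passed a filter on low counts. Knockout Pvalb nuclei had more RNA of 9 genes, 7 of them noncoding, and less of 7 genes, all protein-coding. These 16 genes are 0.262% of those tested, 0.147% higher and 0.115% lower (adjusted p under 0.05 in edgeR's quasi-likelihood test over 2 animals of each genotype). Of all genes tested 8.16% are not protein-coding. DESeq2 called 0 genes on the same sums, with a smallest adjusted p of 0.672 and 46 genes at an unadjusted p under 0.05, against 399 (6.53%) in edgeR, 3.39% higher and 3.14% lower. limma-voom called 10 genes, 8 of them among the 16. The calls thus hold for edgeR, in part for limma-voom and not for DESeq2.

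**Figure D2:**
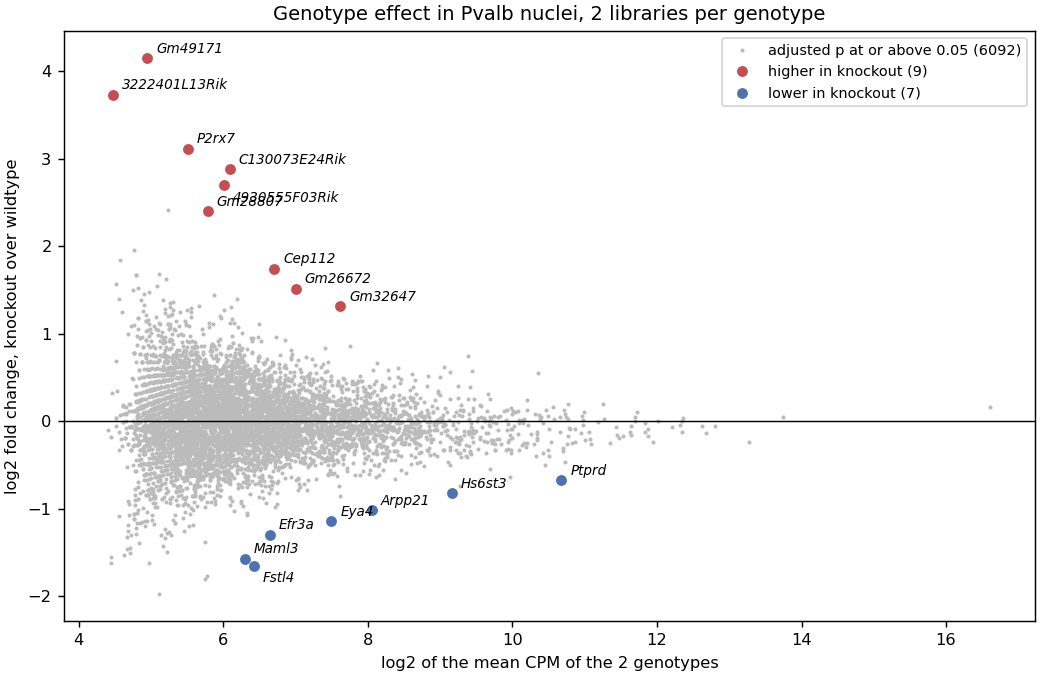
Log2 fold change (knockout over wildtype, vertical) against log2 mean CPM (horizontal) for the 6108 genes tested in Pvalb nuclei, 2 libraries per genotype. Red points are the 9 genes that rose and blue points the 7 that fell. The red points reach 4.15 log2 units (Gm49171) and the blue ones -1.65 (Fstl4).

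P2rx7 encodes an ATP-gated cation channel that is better known from microglia. In Pvalb nuclei it measured 5.53 and 11.3 CPM in wildtype and 52.4 and 113 CPM in knockout, a rise of 3.12 ± 0.591 log2 units (SE of the fit, adjusted p = 0.00179). The groups did not overlap. The UMIs numbered 2 and 4 in wildtype and 15 and 18 in knockout, spread over 12 of 58 nuclei in knockout replicate 1. In knockout replicate 2 they came from 8 of 38 nuclei, with 8 of the 18 UMIs in a single nucleus. The microglial marker sum above was higher in knockout too, and its part in the P2rx7 values was not tested. With nuclei of very high UMI counts or of 3 or more glial and vascular UMIs left out, the P2rx7 value was 2.90 log2 units and was not called (adjusted p = 0.213, edgeR, 5478 genes tested). P2rx7 lies at chromosome 5, 122643911 to 122691432, plus strand (GRCm38).

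Cep112, a centrosomal protein gene, was the other coding gene that rose. It measured 44.2 and 48.0 CPM in wildtype and 129 and 195 CPM in knockout, and rose by 1.74 ± 0.318 log2 units (adjusted p = 0.00118). Each knockout library stood above both wildtype libraries, and the gene remained called with any 1 of the 4 libraries left out. Its call was lost with DESeq2, with at least 6 marker UMIs, in nuclei with no Slc17a7 or Neurod6 UMI, and in nuclei just outside the rule. A UMI of Cep112 was found in 13.3%, 14.7%, 36.2% and 34.2% of the nuclei. Cep112 lies at chromosome 11, 108425192 to 108860615, plus strand, and overlaps 2 genes on the other strand, whose reads could be told apart only if the counting used strand, which is not given in the sources used here.

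The promoters of these 2 coding genes are shown because both genes rose together. Methylation of mammalian DNA occurs mostly at CG pairs, which does not say that the pairs shown here are methylated. Each run is 300 bases of GRCm38.p6 from RefSeq, 250 before and 50 after a listed start on the gene's strand, 5′ to 3′, with each CG in capitals. The windows are chr5:122643677-122643976, plus strand, and chr11:108425016-108425315, plus strand.
P2rx7: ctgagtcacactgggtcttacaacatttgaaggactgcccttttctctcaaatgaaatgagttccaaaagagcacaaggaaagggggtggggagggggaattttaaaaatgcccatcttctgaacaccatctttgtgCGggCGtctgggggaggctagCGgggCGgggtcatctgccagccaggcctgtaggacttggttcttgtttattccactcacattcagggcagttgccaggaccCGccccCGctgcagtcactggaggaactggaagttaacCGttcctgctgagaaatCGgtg
Cep112: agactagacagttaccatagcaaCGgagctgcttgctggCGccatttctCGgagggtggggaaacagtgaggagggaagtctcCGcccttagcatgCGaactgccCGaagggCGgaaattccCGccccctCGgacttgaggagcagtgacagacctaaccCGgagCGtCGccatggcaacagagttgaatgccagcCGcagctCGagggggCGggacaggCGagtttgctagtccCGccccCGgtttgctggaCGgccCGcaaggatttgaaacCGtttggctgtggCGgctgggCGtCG
The P2rx7 window holds 8 CG pairs, close to the median of 7 over 32851 such promoters, of which 48.6% hold at least as many. The Cep112 window holds 24, and 19.98% of promoters hold at least as many, while 94.6% of all promoters hold at least 1. The table lists 2 starts for P2rx7 and 3 for Cep112, and the start nearest to the annotated gene's was taken. The match is a description of these letters only, since no methylation was measured.

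The 7 noncoding genes that rose carry predicted names, and no function of theirs is stated here. Gm49171 had 2 and 0 UMIs in wildtype and 14 and 11 in knockout (5.53, 0, 48.9 and 69.2 CPM). With so few wildtype UMIs the change is best read as a ratio of 20.1, with a counting interval of 5.01 to 175 (adjusted p = 0.0035). The UMIs were clumped, which the interval does not cover: 6 and 5 of the 14 in knockout replicate 1 came from 2 nuclei, and 6 of the 11 in knockout replicate 2 from a single nucleus. 3222401L13Rik had 2 and 0 UMIs in wildtype and 13 and 6 in knockout, a ratio of 15.3 with an interval of 3.68 to 135 (adjusted p = 0.0453). Neither gene's groups overlapped.

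Gm26672 measured 63.6 and 70.6 CPM in wildtype and 202 and 176 CPM in knockout, a rise of 1.51 ± 0.271 log2 units (adjusted p = 0.0011). It was found in 22.7% and 26.7% of wildtype and 58.6% and 47.4% of knockout Pvalb nuclei, so many nuclei took part. Gm26672 and 3222401L13Rik both lie on chromosome 18 at the gamma protocadherin cluster, a tandem array of cell adhesion genes: Gm26672 runs on the minus strand over 19 protocadherin genes of the plus strand. The 57 clustered protocadherin genes were all too low to test in Pvalb nuclei, and together they measured 108 and 113 CPM in wildtype and 161 and 183 CPM in knockout.

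Gm32647, on chromosome 7, measured 111 and 116 CPM in wildtype and 293 and 264 CPM in knockout (1.31 ± 0.233 log2 units, adjusted p = 0.0011). Its UMIs came from 15 of 58 and 11 of 38 knockout nuclei, and 33 of the 84 in knockout replicate 1 from a single nucleus. Gm28807, also on chromosome 7, measured 24.9, 11.3, 115 and 69.2 CPM (2.40 ± 0.446 log2 units, adjusted p = 0.00142). For both genes every knockout library was above every wildtype library.

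C130073E24Rik and 4930555F03Rik lie 1194296 bases apart on chromosome 8. C130073E24Rik measured 19.3, 8.48, 48.9 and 195 CPM (2.88 ± 0.518 log2 units, adjusted p = 0.0011), and 4930555F03Rik measured 11.1, 19.8, 62.8 and 164 CPM (2.69 ± 0.481 log2 units, adjusted p = 0.0011). Knockout replicate 2 was the highest library for both, and neither stayed called without it. C130073E24Rik was found in 3 of 75 nuclei of each wildtype library, in 10 of 58 nuclei of knockout replicate 1 with at most 2 UMIs each, and in 6 of 38 nuclei of knockout replicate 2, where 13 of its 31 UMIs came from a single nucleus. 4930555F03Rik was found in 4 and 5 of 75 wildtype nuclei, in 5 of 58 nuclei of knockout replicate 1 and in 9 of 38 of knockout replicate 2, with 9 UMIs in a single nucleus in each knockout library.

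Among the 7 genes that fell are genes of synaptic adhesion, membrane anchoring and transcription. Fstl4, a follistatin-like secreted protein gene, measured 105 and 153 CPM in wildtype and 34.9 and 50.4 CPM in knockout, and fell by 1.65 ± 0.355 log2 units (adjusted p = 0.0128). Maml3, a coactivator of Notch signalling, measured 116, 124, 48.9 and 25.2 CPM (-1.57 ± 0.358 log2 units, adjusted p = 0.0223). Both groups of libraries stood apart for both genes, and a UMI of Maml3 was found in 25.3% of nuclei in each wildtype library and in 17.2% and 7.89% of knockout nuclei.

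Eya4, a transcriptional coactivator and phosphatase gene, measured 287 and 215 CPM in wildtype Pvalb nuclei. In wildtype it measured 101 and 105 CPM in the other Adarb2-low inhibitory nuclei, 20.2 and 12.02 CPM in Adarb2-high nuclei and 6.39 and 7.55 CPM in excitatory nuclei. In knockout Pvalb nuclei it measured 126 and 94.4 CPM, and fell by 1.14 ± 0.251 log2 units (adjusted p = 0.0153). Eya4 UMIs were found in 53.3% and 50.7% of wildtype nuclei and in 32.8% and 31.6% of knockout nuclei.

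Arpp21, which encodes an RNA-binding phosphoprotein, measured 321, 398, 199 and 145 CPM (-1.02 ± 0.230 log2 units, adjusted p = 0.0214). Its gene holds the microRNA gene Mir128-2 on the same strand. In each library 1 nucleus held 19, 17, 9 and 4 of the 116, 141, 57 and 23 Arpp21 UMIs. Efr3a, which anchors a lipid kinase at the plasma membrane, measured 152, 136, 62.8 and 50.4 CPM (-1.30 ± 0.307 log2 units, adjusted p = 0.0345), and its call was lost with any 1 library left out. Arpp21 and Efr3a were lower in both knockout libraries than in both wildtype libraries.

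Ptprd, a receptor tyrosine phosphatase of the synaptic cleft, gave 732, 713, 406 and 172 UMIs. It measured 2023, 2015, 1417 and 1083 CPM, and fell by 0.68 ± 0.147 log2 units (adjusted p = 0.0134). Hs6st3, an enzyme that sulfates heparan sulfate, measured 627, 825, 363 and 472 CPM (-0.82 ± 0.191 log2 units, adjusted p = 0.0291). Both were found in nearly all or most wildtype nuclei, Ptprd in 98.7% and 100% and Hs6st3 in 64.0% and 70.7%. In each library 1 nucleus held 99, 81, 63 and 28 of the Ptprd and 28, 35, 16 and 25 of the Hs6st3 UMIs. Ptprd measured 7818, 7631, 7448 and 6674 CPM in excitatory nuclei, and Hs6st3 1020, 1109, 1022 and 835.5 CPM. Fstl4, Maml3 and Arpp21 were richer there too. They gave 6324, 2630 and 23612 UMIs in wildtype excitatory nuclei, whose libraries summed to 6123266 and 5628478 UMIs. Wildtype Pvalb nuclei gave 92, 86 and 257, from sums of 396351 and 392307 UMIs. Efr3a (1285 against 103 UMIs) and Eya4 (81 against 180 UMIs) were not richer in excitatory nuclei. Without likely doublets Fstl4, Eya4, Arpp21, Efr3a, Ptprd and Hs6st3 lost their calls and Maml3 kept its call. In nuclei with no Slc17a7 or Neurod6 UMI none of the 7 genes that fell was called.

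**Figure D3:**
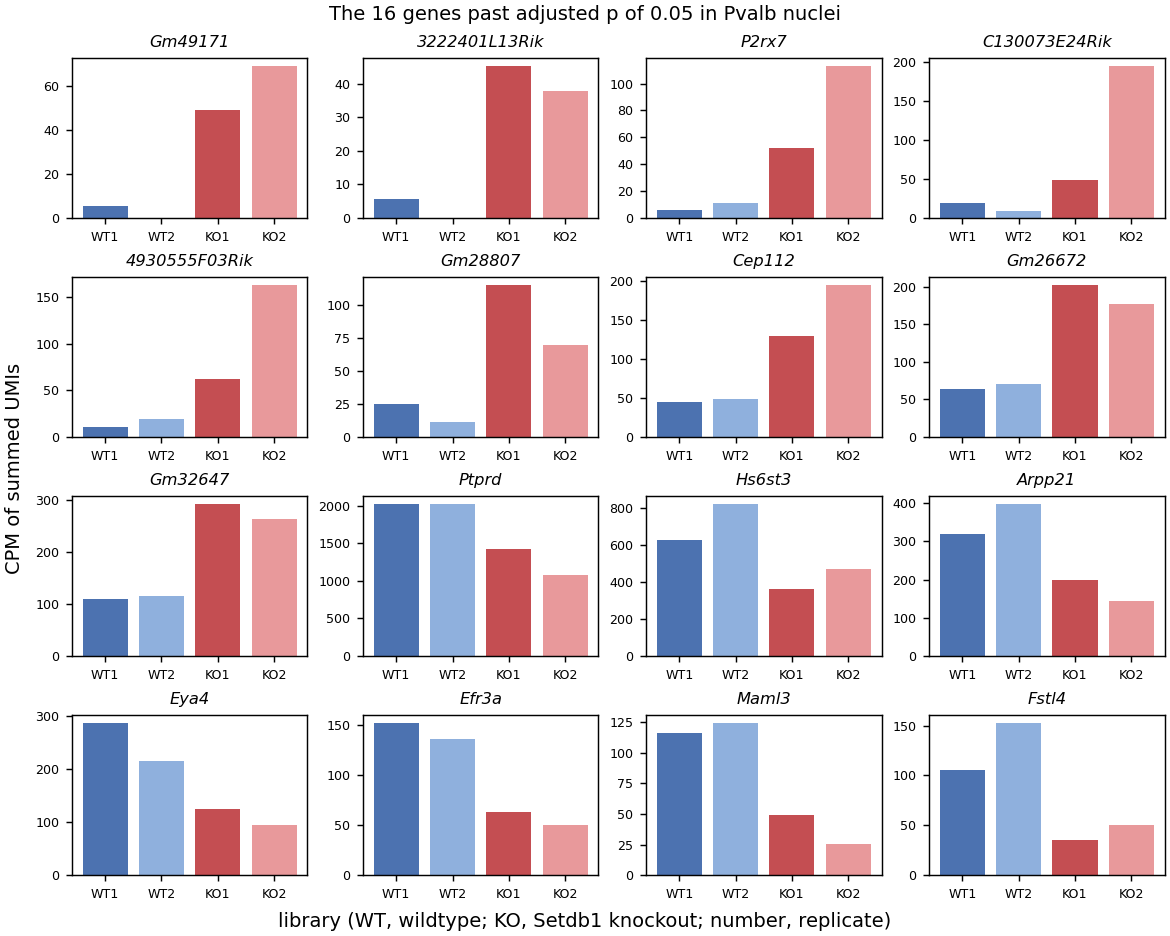
CPM (vertical, from 0) in each library (horizontal, WT wildtype and KO knockout with the replicate number) for the 16 genes past the threshold in Pvalb nuclei. In each panel both knockout bars lie on the same side of both wildtype bars. Knockout replicate 2 stands far above replicate 1 for C130073E24Rik (195 against 48.9 CPM) and 4930555F03Rik (164 against 62.8 CPM).

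Cep112 was the gene whose call held with each library left out in turn. Without wildtype replicate 1 the calls of Arpp21, Maml3, Hs6st3, Gm26672, Gm32647, Efr3a, Ptprd, Eya4 and 3222401L13Rik were lost (adjusted p from 0.0625 to 0.72). Without wildtype replicate 2 those of Gm32647, Efr3a, Maml3, Gm49171, Ptprd, Fstl4, Arpp21, Hs6st3 and 3222401L13Rik were lost (0.0585 to 0.999). Without knockout replicate 1 the lost calls were Gm26672, Efr3a, Hs6st3, Fstl4 and Gm28807 (0.0524 to 0.417), and Gm49171 and 3222401L13Rik were too low to test. Without knockout replicate 2 they were Eya4, Arpp21, Ptprd, Efr3a, Gm49171, Maml3, 3222401L13Rik, 4930555F03Rik, P2rx7 and C130073E24Rik (0.0754 to 0.691). No sign changed in any of these fits, but with both knockout libraries on 1 side of both wildtype libraries for all 16 genes, a sign could hardly change.

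Such separation is common here, as both knockout libraries were above both wildtype libraries for 17.8% and below them for 18.7% of all genes tested. The 309 nuclei just outside the rule, which had 2 Gad1, Gad2 and Slc32a1 UMIs or a marker sum of 3, come from the same animals but share no nucleus with the members. Their levels of Kcnc2 (2163 to 2327 CPM) and Lhx6 (40.1 to 92.1 CPM) lie beside 2167 to 2498 and 50.4 to 84.8 CPM in the members. All 16 genes had the same sign there as in the members, and 5 were called: Gm49171 (4.81 ± 0.397), P2rx7 (3.94 ± 0.515), 3222401L13Rik (3.32 ± 0.520), Gm32647 (1.48 ± 0.317) and Gm26672 (1.46 ± 0.216 log2 units). In that class 18 of 6030 genes were called (0.299%), 0.265% higher and 0.0332% lower. Cep112 (1.04 ± 0.283), C130073E24Rik (0.43 ± 0.420), 4930555F03Rik (0.32 ± 0.344) and Efr3a (-0.27 ± 0.245) were among those not called there. Eya4 measured 346 and 239 CPM in wildtype and 142 and 170 CPM in knockout in these nuclei (-0.92 ± 0.227, adjusted p = 0.0981).

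In other classes of the same libraries P2rx7 and the protocadherin-cluster transcripts rose as well. P2rx7 rose by 3.33 ± 0.219 log2 units in excitatory, 3.33 ± 0.309 in Adarb2-high and 2.86 ± 0.379 in other Adarb2-low inhibitory nuclei, and its difference between Pvalb and excitatory nuclei, -0.31 ± 0.698, did not pass the test. Of the 16 genes, 9 were called in the same direction in excitatory nuclei, 3 of 14 tested in Adarb2-high nuclei and 4 in the other Adarb2-low nuclei. The share of genes called was 2.28% in excitatory (1.77% higher and 0.516% lower), 0.136% in Adarb2-high and 0.141% in other Adarb2-low nuclei. The classes come from the same animals and libraries, so this is no independent repeat.

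**Figure D4:**
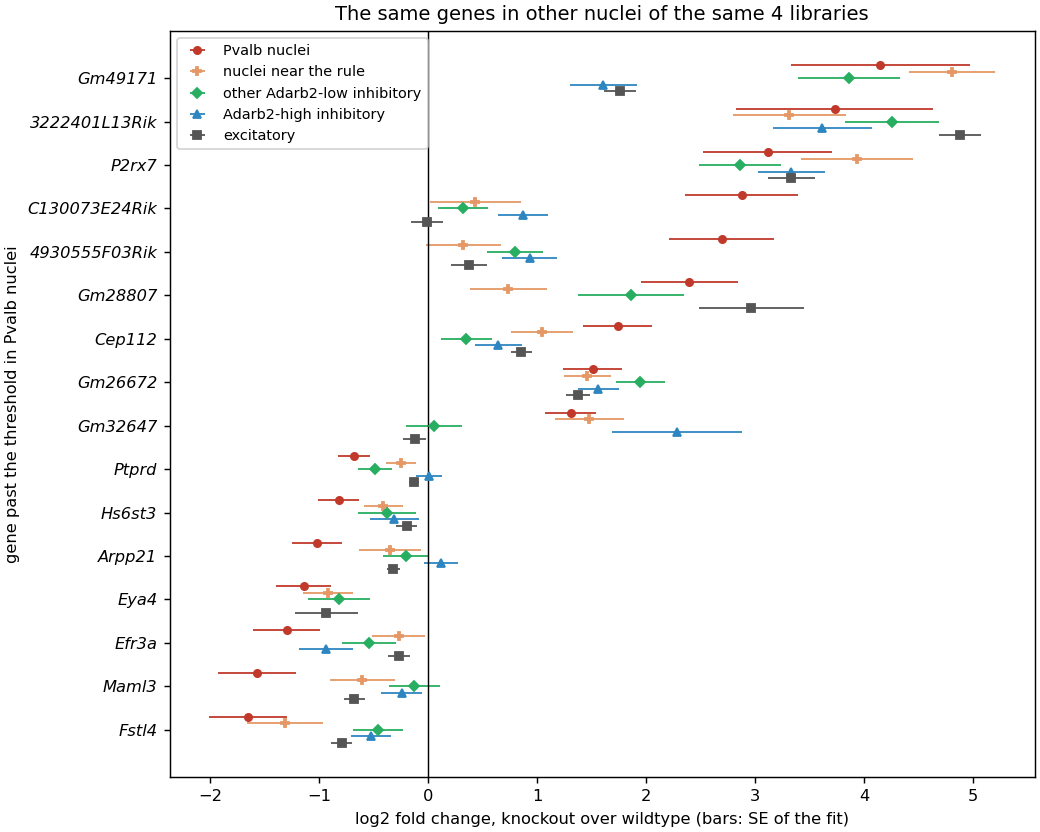
Log2 fold change (knockout over wildtype, horizontal, bars are the SE of the fit) of the 16 genes called in Pvalb nuclei, for 5 classes of nuclei from the same 4 libraries. P2rx7 lies between 2.86 and 3.94 in every class, while C130073E24Rik is at 2.88 in Pvalb nuclei and at -0.01 in excitatory nuclei.

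A test of the difference itself, in which each library served as its own control, found 16 of 14133 genes (0.113%) whose genotype effect in Pvalb nuclei was not that in excitatory nuclei, 7 above (0.0495%) and 9 below (0.0637%). Bc1, a short noncoding RNA abundant in dendrites, had the smallest p. It measured 368, 619, 600 and 1095 CPM in Pvalb nuclei and 423, 599, 1403 and 4552 CPM in excitatory nuclei. The difference was -1.68 ± 0.162 log2 units (adjusted p = 6.55e-21, edgeR), and ranged from -2.08 to -1.22 over 6 alternative settings. The rise in excitatory nuclei was thus far larger than in Pvalb nuclei, where the libraries overlapped and Bc1 was not called. The SE and p rest on a dispersion moderated over genes and do not measure the spread of Bc1 between animals. The 2 knockout libraries lay far apart in excitatory nuclei. Adarb2-high inhibitory nuclei held 419, 702, 719 and 6126 CPM of Bc1, so a high value in knockout replicate 2 was not particular to excitatory nuclei.

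Ptprm, a homophilic adhesion phosphatase gene, measured 1114, 1054, 1082 and 1108 CPM in Pvalb nuclei and 123, 131, 74.2 and 67.7 CPM in excitatory nuclei. It fell in the latter by 0.84 log2 units, so the difference was 0.76 ± 0.157 (adjusted p = 0.00252). The adhesion gene Cdh4 measured 82.9, 67.8, 108 and 201 CPM in Pvalb nuclei, where it was not called, and fell in excitatory nuclei (114, 126, 70.9 and 89.9 CPM), with a difference of 1.45 ± 0.297 (adjusted p = 0.00252). Inpp4b, a phosphoinositide phosphatase gene, measured 254, 254, 150 and 126 CPM in Pvalb and 170, 178, 208 and 210 CPM in excitatory nuclei (-1.20 ± 0.233, adjusted p = 0.000967).

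Luzp2 measured 824, 757, 604 and 302 CPM in Pvalb and 162, 178, 164 and 173 CPM in excitatory nuclei (-0.80 ± 0.168, adjusted p = 0.00343). Gm36264 rose in excitatory nuclei (25.2, 40.8, 94.9 and 315 CPM) and overlapped in Pvalb nuclei (24.9, 53.7, 41.9 and 62.9 CPM), a difference of -2.14 ± 0.432 (adjusted p = 0.00202). C130073E24Rik (2.80 ± 0.479, adjusted p = 3.47e-05) and Gm32647 (1.36 ± 0.247, adjusted p = 0.000172), which rose in Pvalb nuclei, were at 34.4 to 41.3 and 69.6 to 81.4 CPM in excitatory nuclei. Of these 8 genes only Bc1 held its call with each library left out in turn. The count of calls was 5 and 1 without wildtype replicates 1 and 2, and 38 and 4 without knockout replicates 1 and 2.

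Against the other inhibitory classes no gene's difference passed. That was 0 of 7750 genes against Adarb2-high nuclei (354 at an unadjusted p under 0.05, 4.57%) and 0 of 7660 against the other Adarb2-low nuclei (290, 3.79%), by edgeR. The rule for Sst interneurons found only 17 nuclei (2, 2, 9 and 4 per library), and 0 of 3205 genes passed (138 at an unadjusted p under 0.05, 4.31%). So few nuclei cannot show whether the genotype effects differ between Pvalb and Sst nuclei. Without knockout replicate 1 the counts were 8, 8 and 0, and without knockout replicate 2 they were 0, 7 and 0.

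The lists of genes known for the identity of these cells or for their firing and transmission, which do not hold Eya4, had no called member. Only 0.262% of all 6108 genes were called, so lists as short as these and those below would most often hold none. A count of 0 is therefore no sign that a list was spared. Of 16 tested genes of MGE lineage and Pvalb identity 0 passed, with 13 below 0 and a median of -0.16 log2 units, while the median over all 6108 genes was 0.00392. Ppargc1a measured 326, 438, 258 and 308 CPM (-0.45 ± 0.217, adjusted p = 0.743) and the ankyrin gene Ank1 measured 379, 396, 290 and 302 CPM (-0.39 ± 0.209, adjusted p = 0.774). In that list 5 of 16 genes were lower in both knockout libraries. Kcnc2, at the levels above, overlapped between genotypes.

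None of 30 potassium channel genes, 12 sodium and HCN channel genes and 17 genes of calcium channels and buffers was called, with medians of -0.07, -0.10 and -0.13. Dpp10, an auxiliary subunit of Kv4 channels, measured 1351, 1577, 1169 and 1038 CPM (-0.40 ± 0.152, adjusted p = 0.617). Kcna2, the axonal Kv1.2 channel gene, measured 41.5, 50.9, 20.9 and 18.9 CPM (-1.17 ± 0.549, adjusted p = 0.735). Scn1a, the sodium channel Nav1.1 on which these interneurons rely, measured 448, 430, 356 and 308 CPM (-0.39 ± 0.202, adjusted p = 0.772). Cacna1a, the P/Q calcium channel that drives their transmitter release, measured 1639, 1588, 1375 and 1183 CPM (-0.33 ± 0.147, adjusted p = 0.711). These 4 were lower in both knockout libraries, and none differed beyond the threshold. Other channel genes lay the other way: Kcnb2, the Kv2.2 channel gene, measured 251, 268, 335 and 346 CPM (0.39 ± 0.213, adjusted p = 0.778), and the pacemaker channel gene Hcn2 measured 88.4, 90.4, 122 and 126 CPM (0.47 ± 0.283, adjusted p = 0.815). Both knockout libraries were below both wildtype libraries for 6 potassium, 3 sodium and HCN and 8 calcium genes, and above them for 3, 1 and 0, beside 18.7% below and 17.8% above among all genes.

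The lists of synaptic genes, which do not hold the called gene Ptprd, had no called member either, where 0.262% of all genes were called. Of 29 presynaptic release genes, 21 glutamate receptor genes, 13 GABA receptor genes and 18 genes of inhibitory synapse scaffold and adhesion 0 were called, with medians of -0.05, -0.03, -0.05 and -0.11. The nearest was Grin2a, an NMDA receptor subunit gene, with 1155 and 1286 CPM in wildtype and 869 and 680 CPM in knockout (-0.64 ± 0.162, adjusted p = 0.0648). Nlgn1, a postsynaptic adhesion gene, measured 1556, 1744, 1239 and 1083 CPM (-0.50 ± 0.149, adjusted p = 0.27). Of the 18 scaffold and adhesion genes, 7 had both knockout libraries below both wildtype libraries and 0 above them, where 18.7% and 17.8% of all genes did.

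In the perineuronal net, the matrix that wraps Pvalb cells, 5 of 13 genes could be tested and 0 passed. Ptprz1, a net receptor, measured 94.0, 45.2, 115 and 170 CPM (0.96 ± 0.311, adjusted p = 0.426), and Tnr, which links the net, measured 641, 780, 517 and 560 CPM (-0.41 ± 0.18, adjusted p = 0.711). Homer1, an activity-induced gene, measured 133, 102, 97.7 and 37.8 CPM (-0.64 ± 0.317, adjusted p = 0.756), and 4 of 24 activity-induced genes were tested, with 0 called.

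Genes of H3K9 methylation and the HUSH silencing complex, Setdb1's own pathway, had 16 members tested, 0 called and a median of 0.22. Ehmt2, which encodes the H3K9 methyltransferase G9a, measured 13.8, 39.6, 41.9 and 50.4 CPM (0.75 ± 0.528, adjusted p = 0.851). Of the Zfp genes, many of which bind DNA and recruit Setdb1 through Trim28, 77 were tested and 0 called, with a median of 0.07. Zfp160 was the nearest, with 52.5, 25.4, 90.8 and 107 CPM (1.30 ± 0.373, adjusted p = 0.212). All 37 genes of complement, MHC and interferon response were too low to test, and their sum was 155 and 153 CPM in wildtype and 220 and 315 CPM in knockout. The microglial marker sum was higher in knockout as well (96.7 and 130 against 182 and 189 CPM), and its part in this sum was not tested.

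Ribosomal protein and oxidative phosphorylation genes lay above 0 as groups, with no single gene called. Of 68 cytosolic ribosomal protein genes 62 had a value above 0, with a median of 0.43 log2 units, and 31 had both knockout libraries above both wildtype libraries, a pattern seen in 17.8% of all genes. Their sum was 3750 and 4239 CPM in wildtype and 5092 and 5382 CPM in knockout. Rpl24 measured 60.8, 65.0, 115 and 126 CPM (0.92 ± 0.312, adjusted p = 0.527). Of 63 nuclear genes of oxidative phosphorylation 56 were above 0, with a median of 0.35 and 31 separated upward, and the sums were 4104, 4377, 5361 and 5306 CPM. Atp5h, a subunit of the ATP synthase, measured 44.2, 76.3, 112 and 126 CPM (0.96 ± 0.324, adjusted p = 0.526).

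Most ribosomal protein RNA lies in the cytoplasm, so its share is also a sign of how clean nuclei are. In excitatory nuclei of the same libraries the ribosomal sum was 3780, 3872, 5170 and 7204 CPM, higher in knockout too. Mitochondrially encoded RNA, another such sign, was 0.121%, 0.316%, 0.392% and 0.212% of UMIs in Pvalb nuclei, with overlapping genotypes. The part of nuclear purity in these group shifts was not tested.

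**Figure D5:**
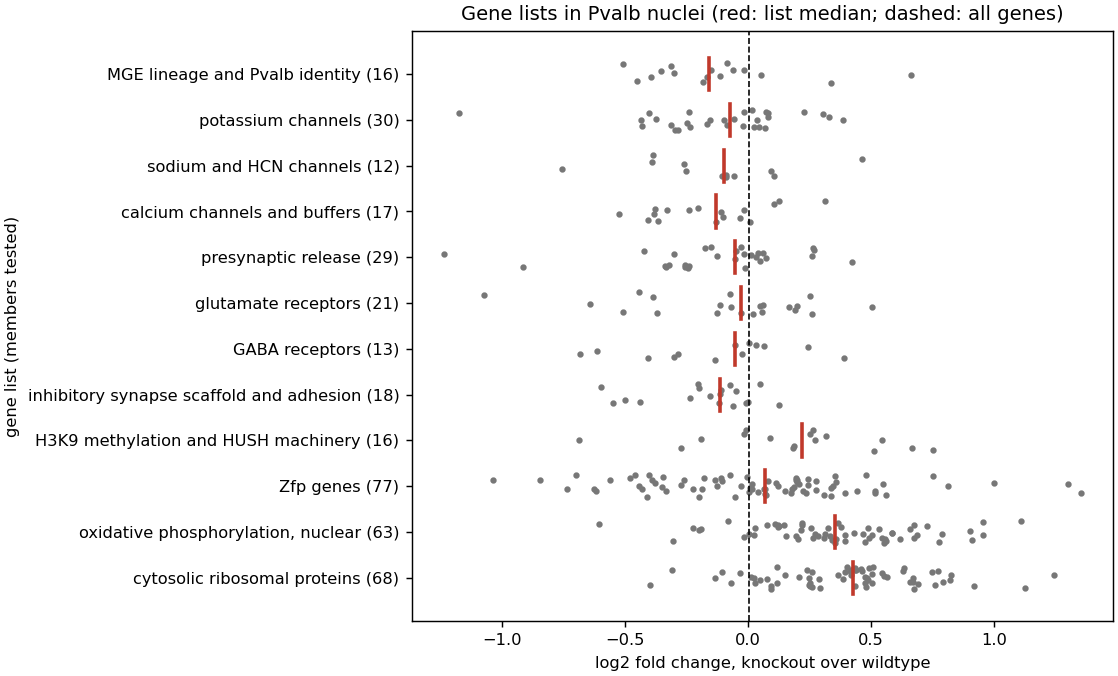
Log2 fold change (knockout over wildtype, horizontal) of each tested member of 12 gene lists in Pvalb nuclei, with list medians in red and the median of all genes dashed. The lists of channels, receptors and synapse genes centre between -0.13 and -0.03, and those of ribosomal protein and oxidative phosphorylation genes at 0.43 and 0.35.

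Genes picked earlier for their change in excitatory neurons of these libraries were read in Pvalb nuclei, where the choice is not independent evidence of direction. Of 26 that were named as higher, 7 could be tested: all 7 had values above 0, 3 were called (P2rx7, Gm26672 and 3222401L13Rik), and the median was 0.98. Adk, adenosine kinase, measured 102, 98.9, 119 and 176 CPM (0.48 ± 0.273, adjusted p = 0.778). Of 20 named as lower, 8 were tested, 1 was called (Fstl4) and the median was -0.27. The clock gene Npas2 measured 105, 76.3, 59.3 and 31.5 CPM (-0.88 ± 0.366, adjusted p = 0.682), and the metabotropic glutamate receptor gene Grm8 measured 113, 105, 52.4 and 50.4 CPM (-1.07 ± 0.341, adjusted p = 0.39).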

How the data were processed

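Nuclear RNA of 4 cortex libraries was counted by the authors as UMI counts per gene and barcode using Cell Ranger 7.1.0 and the mm10 genome (per the submitters' processing notes), and the deposited matrices hold these counts with no normalization. Their features and barcodes files pair gene identifiers with symbols. Whether intronic reads or strand entered the counting, and whether free RNA was removed, is not given in the sources used here.

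UMI counts were summed per library over the nuclei of a class, so the animal is the replicate. Genes passed edgeR's filterByExpr (minimum count 10), were scaled by TMM and then tested in edgeR 4.0.16 (R 4.3.3, glmQLFit and glmQLFTest), genotype alone, with Benjamini-Hochberg adjustment over all genes tested and a threshold of 0.05. The SE of a log2 fold change is its size divided by the root of F. Differences between classes come from a genotype by class interaction with libraries as a further term. DESeq2 1.42.0 and limma-voom (limma 3.58.1), other filters, factors and nuclei were alternatives. Excitatory nuclei had at least 3 Slc17a7 and Neurod6 UMIs and more of them than of Gad1, Gad2 and Slc32a1. No doublet caller was run. Instead, nuclei above 3 times their library's median or with 3 or more glial and vascular UMIs were left out in 1 alternative. The tests were tried on simulated counts. Counting intervals are exact at 95%.

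Coordinates and strands are from GENCODE vM21 (GRCm38), where 32235 of 32285 identifiers were found. Named genes were, by rule, the 10 highest and 10 lowest established and the 4 highest and 4 lowest predicted symbols among those called with at least 5 CPM and separated libraries, up to 4 members with the smallest p from each list, and the 4 smallest p in each direction per class difference. Gm28807, and in the closing section Trhde, Gm45321, A830018L16Rik and Tmem108, fall outside this rule and were named after their values were seen. The members and lists were chosen with earlier results of these data known.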

Additional observations from a re-analysis of the deposited data

Results flagged for a closer look

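The genotype effect differed between Pvalb and excitatory nuclei, by a test of the difference itself, for 16 genes (edgeR quasi-likelihood, adjusted p under 0.05, 2 animals per genotype). Values are log2 effects in Pvalb minus excitatory nuclei. Above 0 were C130073E24Rik (2.80), Gm45321 (2.27), 4930555F03Rik (2.22), Cdh4 (1.45), Gm32647 (1.36), Trhde (0.988) and Ptprm (0.76). Below 0 were Gm36264 (-2.14), Rorb (-1.73), Bc1 (-1.68), Inpp4b (-1.20), Luzp2 (-0.802), A830018L16Rik (-0.738), Hs6st3 (-0.731), Ptprd (-0.644) and Tmem108 (-0.638).

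Trhde measured 177, 107, 122 and 453 CPM in Pvalb nuclei, so the rise sat in knockout replicate 2. Gm45321, which lies between 4930555F03Rik and C130073E24Rik on chromosome 8, measured 5.53, 16.96, 27.9 and 132 CPM, with 11 of its 21 UMIs in knockout replicate 2 in a single nucleus. Rorb, a transcription factor of layer 4 excitatory neurons, measured 108, 62.2, 24.4 and 25.2 CPM in Pvalb nuclei and 230, 201, 201 and 190 CPM in excitatory nuclei. Of its Pvalb-nucleus UMIs, 15 and 11 of 39 in wildtype replicate 1 came from 2 nuclei, and 9 of 22 in wildtype replicate 2 from a single nucleus.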

How the results depend on the processing

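The 9 higher and 7 lower calls became 0 and 0 with DESeq2, 3 higher of 10 with limma-voom, and 0 in nuclei with a Pvalb UMI, where only 1633 genes could be tested. With at least 6 marker UMIs, or with no Slc17a7 or Neurod6 UMI, 1 gene was called (Gm32647), 1 higher and 0 lower. Without likely doublets 7 were called, 5 higher and 2 lower. With no low-count filter, with the ribosomal protein and mitochondrial genes left out, and with the replicate number as a block the lower calls numbered 11 each, and all 16 genes kept their call. With 1 library left out the calls ranged from 9 to 34, higher from 6 to 20 and lower from 2 to 14. Added after the data were seen, a looser rule for nuclei called 39 genes (28 higher, 11 lower, 13 of the 16 kept), and nuclei near the rule 16 higher and 2 lower.

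Differences from excitatory nuclei numbered 1 to 38 with 1 library left out, those from Sst nuclei 0 to 1, those from Adarb2-high nuclei 0 to 8 (8 with no low-count filter), and those from other Adarb2-low nuclei 0 to 8 (2 with no filter). The share difference was -1.55 points among nuclei with a Pvalb UMI, and -10.2 to -2.62 with 1 library left out. The causes were not tested. No fold change of a named gene reversed: 124 values kept their call and 107 lost it.

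The replicate block called 24 genes. Only 2 pairs exist, and the correlation of replicate differences was 0.0859 (0.0262 without sex-linked genes). By Xist and Uty RNA, replicate 1 had the male and replicate 2 the female pattern in both genotypes, so the block also separates these patterns, although the labels list the knockout animals the other way. No label says that a number marks a shared litter or day. Few nuclei limit these data, most of all the 38 of knockout replicate 2.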
